A study of Mus musculus with 12 samples.

Results

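Naive CD4 T cells from PP2Ac transgenic mice were compared after 24 h of stimulation and without stimulation (0 h). PP2Ac is the subunit of protein phosphatase 2A that carries its catalytic activity. The comparison uses 4 of the 12 arrays of the study, 2 arrays of transgenic cells at 24 h and 2 of transgenic cells at 0 h. WT cells with the same pairs of arrays at 24 h and 0 h were the other genotype, and both genotypes also had 2 arrays at 6 h, which entered the same fit. All mice carried the C57BL/6 background. Stimulation combined anti-CD3 (0.25 ug/mL) and anti-CD28 (0.5 ug/mL) in solution over a plate-bound goat antibody against hamster antibodies. The title of 1 array in each pair bears the word Rep, and wherever a pair of values is given below, the unmarked array precedes the array marked Rep. No promoter of the transgene is named in the labels, and neither separate mice nor separate cultures are stated, and the p-values therefore reflect array-to-array spread, which may be technical. The source label of the WT samples also holds the word transgenic, while their titles and the design text give wild type.

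Every probe set of the array with a gene symbol was included, 23410 of 28853 in all. Values are quantile-normalised log2 signals, on which a difference of 1 is a 2-fold change, and differences are 24 h minus 0 h with the standard error (SE) of the fit. A probe set was called when limma's adjusted p was under 0.05.

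A naive CD4 T cell is a small resting cell held in quiescence by transcription factors and inhibitors of cell growth. Signals through the T cell receptor and CD28 start a programme of growth, in which ribosomes, nucleotides and lipids are made ahead of DNA replication, and of differentiation, in which cytokines, their receptors and lineage factors are expressed. PP2A is a serine/threonine phosphatase built from a catalytic, a scaffold and a regulatory subunit, and it acts on many kinases of these pathways.

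Ppp2ca, which encodes the catalytic subunit of the transgene's name, had 13.86 and 13.76 in transgenic cells at 24 h, against 13.90 and 13.88 at 0 h (difference −0.08 ± 0.08, adjusted p = 0.58). Mean levels in WT cells were lower, 13.21 at 24 h and 13.15 at 0 h. Genes that define CD4 T cells were high on all 4 transgenic arrays: the 6 measured members averaged 13.12 and 13.04 at 24 h, against 12.99 and 12.91 at 0 h. Markers of other cells were present too. The 10 neutrophil markers averaged 10.75 and 10.35 at 24 h, against 12.21 and 11.44 at 0 h, and 0 of the 10 were called. All 10 were lower on both 24 h arrays than on both 0 h arrays. Of all probe sets, 60.7% separated in this way, in either direction. The SEs of the 10 markers in the shared fit were 1.07 to 1.55. For these markers the WT pairs differed more than the transgenic ones, with means of 11.47 and 8.04 at 24 h, against 12.39 and 8.98 at 0 h. Of the markers of dendritic cells 4 of 8 were called lower, of NK cells 4 of 8, of red cell precursors 3 of 4, and of monocytes and macrophages 1 of 7. Of all probe sets 11.8% were called lower. Of the 8 B cell markers 0 were called, and they averaged 10.38 and 10.13 at 24 h, against 10.21 and 10.09 at 0 h. Cd8a, a subunit of the CD8 coreceptor, rose by 1.88 (adjusted p = 0.035), and the pair Cd8a and Cd8b1 averaged 11.02 and 10.18 at 24 h, against 9.63 and 9.09 at 0 h. Of the regulatory T cell markers, Il2ra and Ctla4 rose and Ikzf2 and Nrp1 fell out of 5, and of 7 markers of antigen-experienced cells Ccl5 and S100a4 fell. Of the 21 called genes on the marker lists, 9 kept their call with any 1 of the 4 arrays left out: Klrd1, Itgax, Cd209a, Slc4a1, Alas2, Kel, Il2ra, Ctla4 and Nrp1. Cd8a lost it without 3 of the 4 arrays (1.31 to 2.45 over all 4, adjusted p up to 0.23). In such bulk RNA, fewer cells of a type and less RNA per cell cannot be told apart.

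At 24 h, 2801 probe sets (12% of those tested) were higher and 2768 (11.8%) were lower than at 0 h, and the median difference over all probe sets was −0.01. Values on both 24 h arrays lay on 1 side of both 0 h arrays for 14208 probe sets (60.7%), called or not. Of the called ones, 688 (2.94%) were at least 2-fold higher and 465 (1.99%) at least 2-fold lower. The response was lopsided at its far end, where 29 probe sets (0.124%) rose at least 8-fold and 8 (0.0342%) fell that far. Leaving out 1 of the 4 arrays lowered both counts: 1675 higher and 1402 lower without the unmarked 24 h array, 1761 and 1802 without the unmarked 0 h array, 1792 and 1452 without the 0 h array marked Rep, and 2327 and 2149 without the 24 h array marked Rep. The same differences taken within the unmarked pair and within the pair marked Rep correlated with r = 0.825 across probe sets, which are not independent replicates.

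Lag3 led the rise. It encodes an inhibitory receptor that binds MHC class II, and it had 12.32 and 12.09 at 24 h, against 7.44 and 7.43 at 0 h, a difference of 4.77 ± 0.18 or 27.2-fold (adjusted p = 8.3e-06). Pros1, the gene of protein S, an anticoagulant that is also a ligand of TAM receptors, had 11.11 and 11.91 at 24 h, against 6.79 and 6.85 at 0 h (4.69 ± 0.40, adjusted p = 0.00018). Both genes were low and nearly equal on the 0 h arrays and lay far above them on both 24 h arrays. Ccdc141, which encodes a coiled-coil protein, had 10.19 and 10.85 at 24 h, against 6.30 and 6.39 at 0 h (4.17 ± 0.37, adjusted p = 0.0002), and its 4 other probe sets rose by 1.78 to 4.30. Genes of the replication checkpoint and of replication licensing followed. Chek1, a checkpoint kinase, had 11.34 and 10.93 at 24 h, against 6.79 and 7.21 at 0 h (4.13 ± 0.18, adjusted p = 1.7e-05). Dtl, the substrate receptor of the ubiquitin ligase that degrades the licensing factor CDT1, had 11.84 and 11.17 at 24 h, against 7.37 and 7.77 at 0 h (3.94 ± 0.27). In both, the unmarked 24 h array stood above the one marked Rep, and the groups did not overlap. Orc1, a subunit of the origin recognition complex, had 9.70 and 9.01 at 24 h, against 5.36 and 5.62 at 0 h (3.86 ± 0.23), where both 0 h values lie under the lower quartile of the normalised arrays (5.81). The remaining 9 of the 15 largest rises ran from 3.28 to 3.63. They were Igfbp4, Il12rb1, Il2, Il1a and Lif, described below, Itih5, of a family of extracellular matrix proteins, Hells, a chromatin remodeller, Bcat1, an enzyme of branched-chain amino acid breakdown, and Uhrf1, which brings the maintenance DNA methyltransferase to replicated DNA.

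Rgs2 fell furthest among genes with a probe set of their own. This inhibitor of G protein signalling had 8.44 and 8.41 at 24 h, against 11.88 and 12.04 at 0 h, a difference of −3.53 ± 0.30 or 11.6-fold (adjusted p = 0.00018). Tdrp, the gene of a testis development related protein, had 8.65 and 8.68 at 24 h, against 11.81 and 11.89 at 0 h (−3.18 ± 0.25, adjusted p = 0.00015). Cd55, whose product disarms complement on the cell surface, had 8.33 and 8.49 at 24 h, against 10.91 and 10.78 at 0 h (−2.43 ± 0.12, adjusted p = 5e-05). In all 3 the arrays of a group lay close together beside the gap between the groups. Other large falls were in Heatr5a (−2.51 ± 0.19), Ramp3, a partner of the calcitonin receptor family (−2.49 ± 0.37), Rhob, a small GTPase of endosomes (−2.41 ± 0.24), Abca1, the cholesterol exporter (−2.41 ± 0.33), Rundc3b (−2.38 ± 0.41), the nuclear receptor Nr4a2 (−2.35 ± 0.37) and Mtmr10 (−2.30 ± 0.20).

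Other large falls belong to genes known from other cells. Fn1, fibronectin of macrophages and stroma, had 7.13 and 7.18 at 24 h, against 10.53 and 10.31 at 0 h (−3.27 ± 0.82, adjusted p = 0.019). Its call was lost without any 1 of the 4 arrays (adjusted p = 0.068 to 0.091, difference −3.37 to −3.16). Cd209a, a lectin of dendritic cells and monocytes, had 6.62 and 6.51 at 24 h, against 9.05 and 10.00 at 0 h (−2.96 ± 0.46, adjusted p = 0.0019). Slc4a1, the anion exchanger of red cells, had 7.55 and 7.37 at 24 h, against 10.61 and 10.17 at 0 h (−2.93 ± 0.39, adjusted p = 0.00092). Trf, transferrin (−3.24 ± 0.34), and Klri1, a receptor of NK cells (−2.40 ± 0.39), were in the same group of the 15 largest falls. The 8 dendritic cell markers had a summed log2 level of 55.59 and 56.33 at 24 h, against 61.66 and 64.10 at 0 h, and those that fell were Itgax, Flt3, Clec9a and Cd209a. The 4 erythroid markers summed to 26.09 and 26.00 at 24 h, against 32.04 and 31.54 at 0 h, with Slc4a1, Alas2 and Kel lower. The 8 NK cell markers summed to 64.57 and 60.40 at 24 h, against 70.05 and 71.19 at 0 h, with Klrk1, Klre1, Klra8 and Klrd1 lower. The 10 neutrophil markers, of which 0 were called, summed to 107.54 and 103.5 at 24 h, against 122.11 and 114.41 at 0 h, and the 7 monocyte and macrophage markers, with Ccr2 lower, to 68.74 and 68.46, against 72.64 and 70.65. These 5 sums were lower on both 24 h arrays than on both 0 h arrays, which did not hold for every other cell type. The 8 B cell markers summed to 83.05 and 81.04 at 24 h, against 81.71 and 80.76 at 0 h. Cd8a and Cd8b1 summed to 22.04 and 20.36 at 24 h, against 19.26 and 18.18 at 0 h. With the replicate block 6 of 8 dendritic cell markers were lower, Siglech (adjusted p = 0.011, against 0.056 without it) and Zbtb46 (0.034, against 0.11) being added. The part of such other cells in these falls was not tested.

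**Figure D1:**
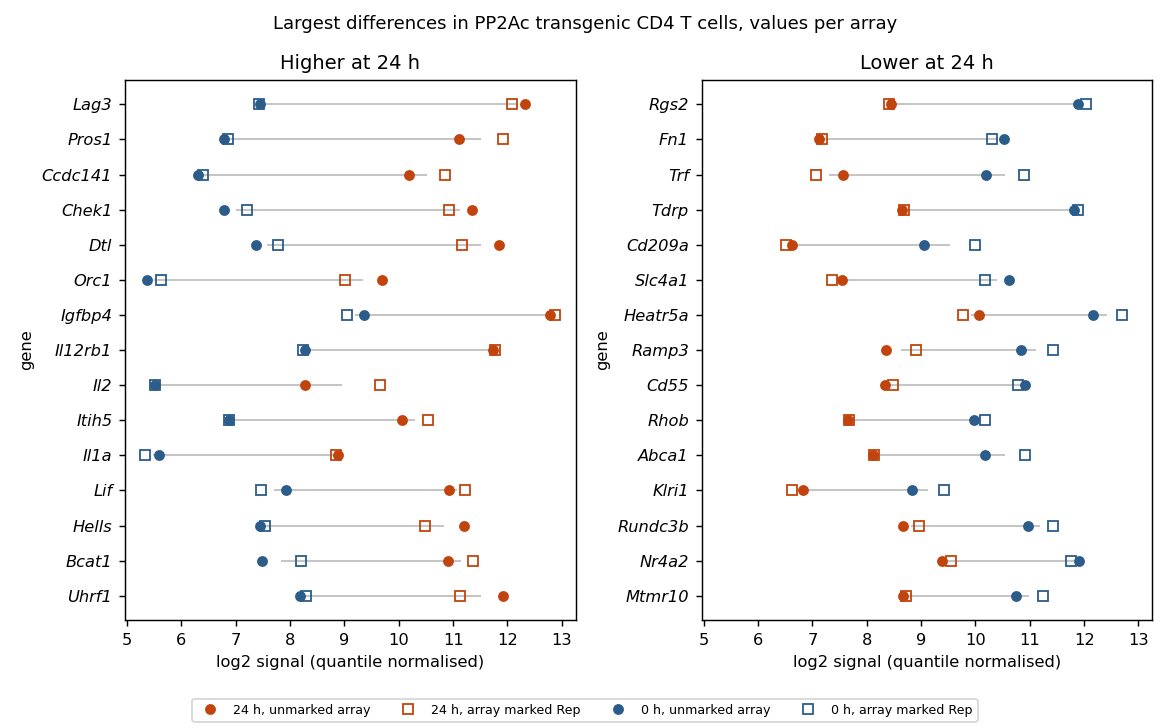
Log2 signal of the 15 genes with the largest rise (left) and the 15 with the largest fall (right) on each of the 4 transgenic arrays, with filled circles for unmarked arrays, open squares for arrays marked Rep, and grey lines joining the group means. The 24 h arrays (orange) and the 0 h arrays (blue) do not overlap for any of the 30 genes, from Lag3 at 4.77 to Mtmr10 at −2.30.

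Gene lists were chosen for this cell type and stimulus with earlier results of these data known, and were counted with 1 probe set per gene. Each share is set beside the 12% higher and 11.8% lower of all probe sets. Given that choice, a share above these describes the list and is not a test of it. Of 25 lists with 742 entries, 687 entries had a probe set of their own. Lists of growth and replication stood at the top and those of quiescence and of cholesterol efflux and its regulators at the bottom.

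**Figure D2:**
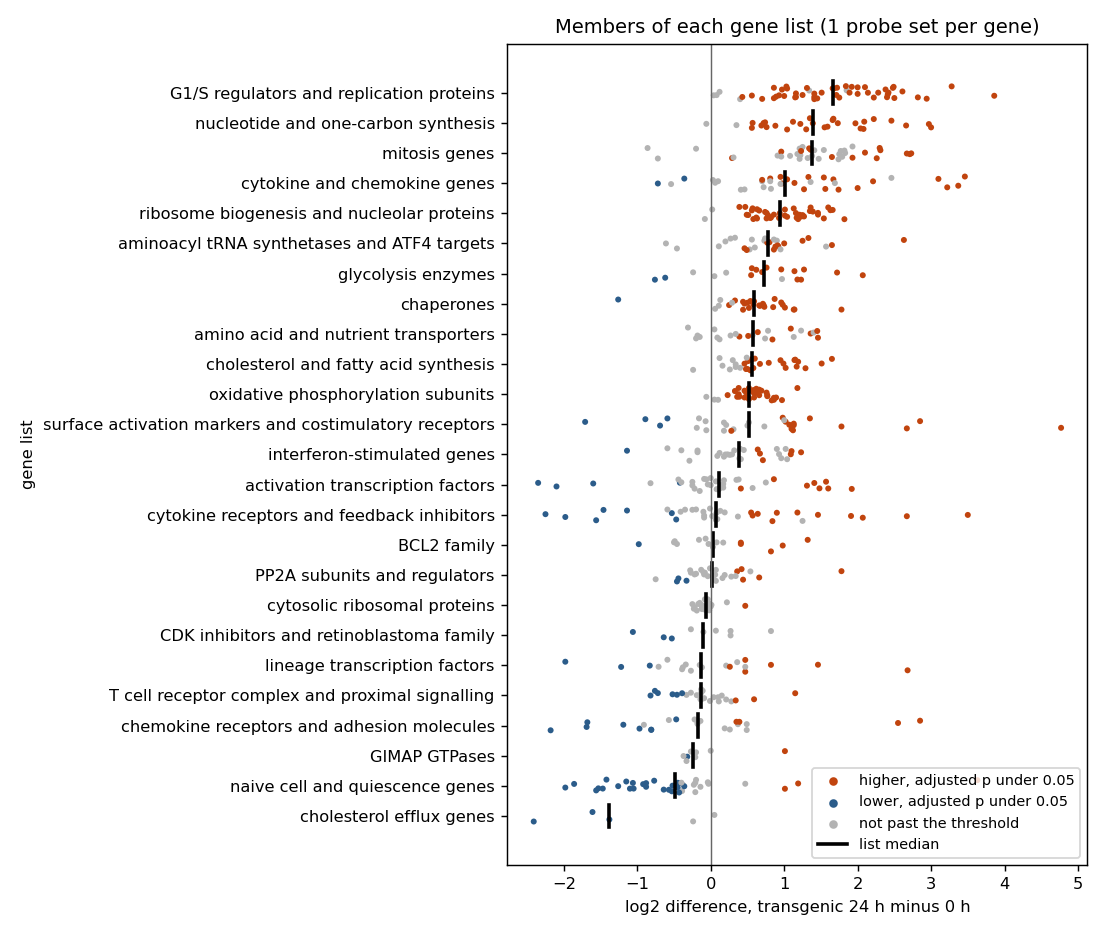
Log2 difference, 24 h minus 0 h in transgenic cells, of every measured member of 25 gene lists, sorted by list median (black bars), with members called higher in orange, called lower in blue and not called in grey. G1/S and replication genes have the highest median (1.66) and cholesterol efflux genes the lowest (−1.38).

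Genes that maintain naive identity and quiescence fell as a group. Among 38 measured members, 24 fell (63.2%), 3 rose (7.89%) and 11 were not called. The shares over all probe sets were 11.8% lower and 12% higher. The list median was −0.49 (−0.59 in the unmarked pair and −0.46 in the pair marked Rep). Il7r, the receptor for the survival cytokine IL-7, had 12.30 and 12.04 at 24 h, against 14.16 and 14.14 at 0 h (−1.98 ± 0.35, adjusted p = 0.0038). Tob1, an inhibitor of T cell proliferation, had 10.05 and 10.02 at 24 h, against 11.85 and 11.94 at 0 h (−1.86 ± 0.12, adjusted p = 6.9e-05). Klf6, a zinc finger factor, had 10.86 and 11.14 at 24 h, against 12.50 and 12.61 at 0 h (−1.56 ± 0.18). The signals of these 3 genes were 2.94-fold to 3.94-fold lower at 24 h, and their groups did not overlap. Klf2, which keeps T cells naive and recirculating, had 11.46 and 11.76 at 24 h, against 12.42 and 12.56 at 0 h (−0.88 ± 0.16, adjusted p = 0.0039). S1pr1, the receptor for exit from lymph nodes, also read −0.88 (± 0.20, adjusted p = 0.011), and the call was lost without the unmarked 24 h array (−0.79, adjusted p = 0.078) or the 0 h array marked Rep (−0.82, adjusted p = 0.073). Vsir, the gene of the quiescence checkpoint receptor VISTA, fell by 1.05 (± 0.12). Txnip, an inhibitor of glucose uptake, chosen after its value was seen, fell by 1.42 (± 0.19, adjusted p = 0.0011). The homing receptor gene Ccr7 read −0.21 ± 0.09 and was not called (adjusted p = 0.13).

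The 3 members that rose were Igfbp4, Id3 and Ddit4. Igfbp4, which encodes a binding protein of insulin-like growth factors, had 12.78 and 12.88 at 24 h, against 9.36 and 9.04 at 0 h, a difference of 3.63 ± 0.23 or 12.4-fold (adjusted p = 6.6e-05). Id3, an inhibitor of E proteins, had 9.99 and 9.58 at 24 h, against 8.89 and 8.67 at 0 h (1.01 ± 0.18, adjusted p = 0.0039). Igfbp4 is a marker of resting naive cells on this list and was among the 15 largest rises of the comparison. Ddit4, an inhibitor of mTORC1, chosen after its value was seen, rose by 1.19, a call lost without the unmarked 0 h array (adjusted p = 0.058).

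The list of cell cycle brakes, which shares Cdkn1b and Rbl2 with the quiescence list, moved less evenly. Of 9 CDK inhibitors and retinoblastoma family members, 3 fell (33.3%, against 11.8% of all probe sets) and 0 rose. The median was −0.10, which became 0.02 without the unmarked 24 h array or the 0 h array marked Rep. Cdkn1b, which encodes the CDK inhibitor p27, had 11.99 and 12.12 at 24 h, against 13.06 and 13.16 at 0 h (−1.06 ± 0.15, adjusted p = 0.0014). Rbl2, the retinoblastoma family member of resting cells, had 11.05 and 11.08 at 24 h, against 11.71 and 11.69 at 0 h (−0.64 ± 0.10, adjusted p = 0.0016), and the third was Rb1 (−0.53 ± 0.11), whose call was lost without the unmarked 0 h array (−0.48, adjusted p = 0.053). Rbl1, the related protein of cycling cells, read 0.27 ± 0.10 (adjusted p = 0.090).

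Of 25 genes of the T cell receptor complex and proximal signalling, 3 rose (12%), 6 fell (24%, against 11.8% of all probe sets) and 16 were not called, with a median of −0.13 (−0.13 and −0.02 in the pairs). The 3 rises became 1 without the unmarked 24 h array, and the 6 falls became 3 without the 0 h array or without the 24 h array marked Rep. The CD3 chain genes Cd3d, Cd3e, Cd3g and Cd247, chosen after their values were seen, read 0.28, 0.04, −0.01 and −0.13 and were not called. The falls were led by Cbl, a ubiquitin ligase that restrains the receptor (−0.46 ± 0.07, adjusted p = 0.002), by Grap2, the adaptor GADS (−0.82 ± 0.13, adjusted p = 0.0025), and by Txk, a Tec family kinase (−0.76 ± 0.13, adjusted p = 0.0033). Against them, Ptpn6, the gene of the phosphatase SHP-1, had 12.82 and 12.72 at 24 h, against 11.76 and 11.48 at 0 h (1.15 ± 0.20, adjusted p = 0.003). Malt1, the protease of the NF-kB signalling complex, rose by 0.59 (± 0.12, adjusted p = 0.0068). Its call was lost without the unmarked 0 h array (0.53, adjusted p = 0.052) or the unmarked 24 h array (0.55, adjusted p = 0.053).

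Surface molecules of activated T cells rose more often than they fell, with 13 of 29 higher (44.8%) and 4 lower (13.8%). Of all probe sets 12% were higher and 11.8% lower. The list median was 0.52 (0.34 in the unmarked pair and 0.69 in the pair marked Rep). Besides Lag3, the largest were receptors of growth signals and of iron. Il2ra, the inducible chain of the IL-2 receptor, had 13.36 and 13.71 at 24 h, against 11.10 and 10.27 at 0 h (2.85 ± 0.33, adjusted p = 0.00052). Tfrc, the transferrin receptor, had 11.59 and 11.66 at 24 h, against 8.80 and 9.10 at 0 h (2.67 ± 0.26, adjusted p = 0.00028). Il2rb, the signalling chain shared by the IL-2 and IL-15 receptors, had 13.46 and 13.38 at 24 h, against an already high 12.28 and 12.31 at 0 h (1.13 ± 0.08, adjusted p = 9.1e-05). Cd69, the early activation marker, had 12.75 and 13.28 at 24 h, against 12.40 and 12.59 at 0 h, and was not called (0.52 ± 0.31, adjusted p = 0.29). Cd44, a marker of antigen experience, read −0.19 ± 0.20 (adjusted p = 0.6). Among the falls were Nt5e, the ectoenzyme CD73 (−1.71 ± 0.40, adjusted p = 0.013), and Tigit, an inhibitory receptor (−0.69 ± 0.16, adjusted p = 0.012). The 4 falls became 0 to 2 when 1 of the 4 arrays was left out: 0 without the unmarked 0 h array, 2 without the unmarked 24 h array and 1 without either array marked Rep. Nt5e read −1.76 to −1.53 and Tigit −0.72 to −0.53 where their calls were lost (adjusted p = 0.063 to 0.073 and 0.055 to 0.081), which was without either 0 h array and without the 24 h array marked Rep.

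Activation transcription factors were called in both directions. Of 37 measured, 8 rose (21.6%), 4 fell (10.8%) and 25 were not called, with a median of 0.11 (0.07 and 0.14 in the pairs). The share that fell was near the 11.8% of all probe sets. Irf4, which scales with the strength of the receptor signal, had 12.98 and 13.39 at 24 h, against 11.29 and 11.24 at 0 h (1.92 ± 0.18, adjusted p = 0.00024). Egr3, an early growth response factor, had 11.26 and 11.09 at 24 h, against 9.66 and 9.57 at 0 h (1.57 ± 0.16, adjusted p = 0.00036). Myc, the driver of growth and metabolism, had 12.99 and 13.13 at 24 h, against 11.75 and 11.41 at 0 h (1.48 ± 0.20, adjusted p = 0.00096). Irf8 rose by 1.41 (± 0.14), and with Myc, Irf4 and Egr3 it stood apart from its 0 h arrays on both 24 h arrays. The falls included the AP-1 factors Fosb and Fosl2 and Nr4a2. Fosb had 8.60 and 8.69 at 24 h, against 10.92 and 10.56 at 0 h (−2.10 ± 0.21, adjusted p = 0.00032), and Fosl2 had 10.80 and 10.41, against 12.01 and 12.40 (−1.60 ± 0.19). Nr4a2 had 9.38 and 9.56 at 24 h, against 11.90 and 11.75 at 0 h, while its relatives Nr4a1 and Nr4a3, chosen after their values were seen, read 0.11 and −0.06 and were not called.

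Of the 20 measured transcription factors of helper lineages, 6 rose (30%) and 3 fell (15%, against 11.8% of all probe sets). The list median was −0.13 (−0.13 and −0.14 in the pairs). Tbx21, which encodes the Th1 factor T-bet, had 12.33 and 12.38 at 24 h, against 9.63 and 9.72 at 0 h, a difference of 2.68 ± 0.27 or 6.43-fold (adjusted p = 0.00032). Gata3, the Th2 factor, had 12.40 and 12.77 at 24 h, against 11.79 and 11.74 at 0 h (0.82 ± 0.25, adjusted p = 0.043), and lost its call without any 1 of the 4 arrays (0.64 to 1.01, adjusted p = 0.07 to 0.21). Zbtb32, a repressor induced in effector cells, rose by 1.46 (± 0.24, adjusted p = 0.0025). Rora, one of the factors of Th17 cells and innate lymphoid cells, had 8.45 and 8.80 at 24 h, against 10.43 and 10.79 at 0 h (−1.98 ± 0.26, adjusted p = 0.00094), and Stat5b, a transducer of IL-2 signals, had 12.04 and 12.09, against 12.85 and 12.95 (−0.83 ± 0.09, adjusted p = 0.00044). Foxp3, the factor of regulatory T cells, had 10.20 and 9.79 at 24 h, against 11.01 and 10.40 at 0 h (−0.71 ± 0.36, adjusted p = 0.21). With the mark Rep as a replicate block it was called lower (adjusted p = 0.0019). The 6 rises became 2 without the unmarked 0 h array or the 24 h array marked Rep, and 3 without either of the other 2 arrays.

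Cytokine and chemokine genes rose as a group: 18 of 34 were higher (52.9%) and 2 were lower (5.88%). All probe sets gave 12% and 11.8%. The list median was 1.01 (0.94 in the unmarked pair and 1.17 in the pair marked Rep). Il2, the growth factor of T cells, had 8.27 and 9.66 at 24 h, against 5.51 and 5.51 at 0 h (3.46 ± 0.55, adjusted p = 0.0023). Ifng, the gene of interferon gamma, had 11.01 and 11.49 at 24 h, against 7.68 and 8.38 at 0 h (3.22 ± 0.42, adjusted p = 0.00089). Lif, leukaemia inhibitory factor, had 10.92 and 11.21 at 24 h, against 7.93 and 7.46 at 0 h (3.37 ± 0.27, adjusted p = 0.00016). The Il2 values at 0 h lie under the lower quartile of the normalised arrays (5.81), and the 24 h arrays differed from each other by more than in Ifng or Lif. Il1a, the gene of interleukin 1 alpha, a cytokine best known from myeloid and epithelial cells, had 8.88 and 8.84 at 24 h, against 5.59 and 5.34 at 0 h (3.39 ± 0.61, adjusted p = 0.0038). Ccl1, the ligand of CCR8, had 8.77 and 9.47 at 24 h, against 7.52 and 7.39 at 0 h (1.67 ± 0.20, adjusted p = 0.00067). The Th2 cytokine gene Il4 had 7.81 and 7.95 at 24 h, against 7.01 and 6.80 at 0 h (0.97 ± 0.11, adjusted p = 0.00043). Both Th17 cytokine genes rose with them: Il17f had 8.33 and 8.77 at 24 h, against 7.01 and 7.0 at 0 h (1.54 ± 0.22, adjusted p = 0.0015). Il17a had 7.66 and 7.81 at 24 h, against 6.57 and 6.62 at 0 h (1.14 ± 0.13, adjusted p = 0.00046). The 2 falls were in Ccl5, a chemokine of memory and cytotoxic cells (−0.72 ± 0.15, adjusted p = 0.0071), and Ltb, lymphotoxin beta (−0.36 ± 0.11, adjusted p = 0.041). Ccl5 lost its call without the unmarked 24 h array (−0.61, adjusted p = 0.061), and Ltb without that array or either 0 h array (−0.37 to −0.26, adjusted p = 0.13 to 0.26).

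**Figure D3:**
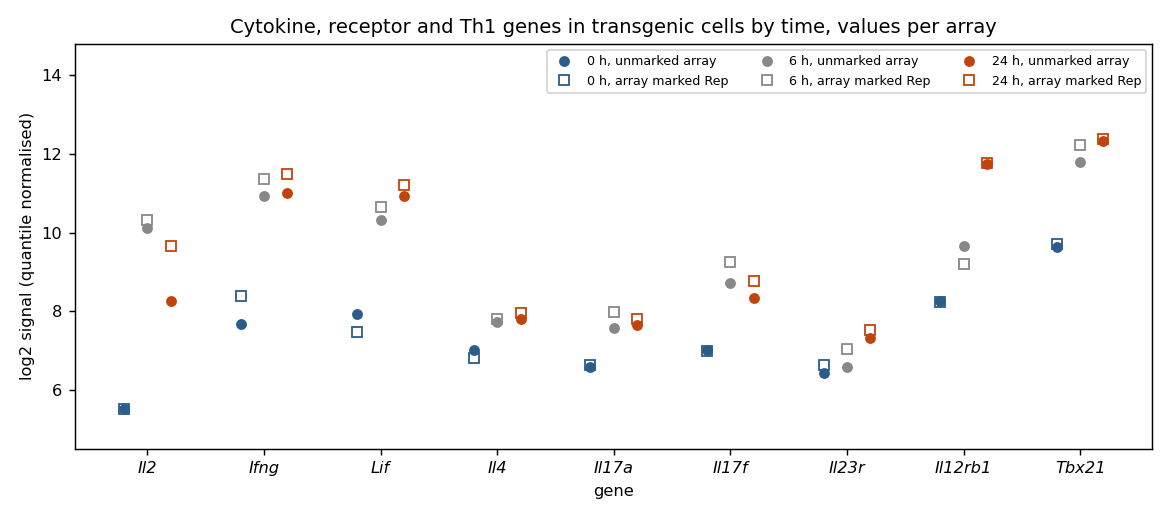
Log2 signal of 9 cytokine, receptor and Th1 genes on each transgenic array at 0 h (blue), 6 h (grey) and 24 h (orange), with filled circles for unmarked arrays and open squares for arrays marked Rep. Il12rb1 (11.74 and 11.77) and Tbx21 (12.33 and 12.38) nearly coincide on the 24 h arrays, while the pair of Il2 values at 24 h spans 8.27 to 9.66.

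Receptor and feedback genes of cytokines were called in both directions, with 11 of 35 higher (31.4%) and 7 lower (20%). Over all probe sets the shares were 12% and 11.8%. The median was 0.07 (0.01 and 0.08 in the pairs). Il12rb1, the chain shared by the IL-12 and IL-23 receptors, had 11.74 and 11.77 at 24 h, against 8.27 and 8.24 at 0 h, a difference of 3.50 ± 0.22 or 11.3-fold (adjusted p = 6.6e-05). Il23r, the chain particular to the IL-23 receptor, had 7.33 and 7.53 at 24 h, against 6.42 and 6.63 at 0 h (0.90 ± 0.16, adjusted p = 0.0036). Il18r1, the receptor of IL-18, went the other way, with 9.03 and 8.61 at 24 h, against 11.07 and 11.06 at 0 h (−2.25 ± 0.28, adjusted p = 0.0007). Genes of feedback inhibitors of JAK and STAT signalling rose. Socs2 had 11.73 and 12.48 at 24 h, against 9.33 and 9.53 at 0 h (2.67 ± 0.29, adjusted p = 0.00043), and Socs1 had 11.48 and 11.65, against 9.41 and 9.59 (2.07 ± 0.17, adjusted p = 0.00018). Cish and Socs3, chosen after their values were seen, rose by 1.91 and 1.18. Dusp1, a phosphatase of MAP kinases, had 11.60 and 11.60 at 24 h, against 12.71 and 12.78 at 0 h (−1.14 ± 0.12, adjusted p = 0.00032).

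Of 23 chemokine receptors and adhesion molecules, 4 rose (17.4%) and 8 fell (34.8%), with a median of −0.18 (−0.22 and −0.21 in the pairs). The share that rose was near the 12% of all probe sets, of which 11.8% fell. The rises were headed by receptors of skin and inflamed tissue. Ccr4 had 12.06 and 12.31 at 24 h, against 9.65 and 9.62 at 0 h (2.55 ± 0.22, adjusted p = 0.00018), and Ccr8 had 11.26 and 11.45, against 9.08 and 7.93 (2.85 ± 0.40, adjusted p = 0.0013). The falls included Itga6, an integrin of laminin (−1.19 ± 0.15, adjusted p = 0.00079), Cxcr6, a receptor of memory and NKT cells (−0.81 ± 0.12, adjusted p = 0.0018), and Cxcr4, the homing receptor for CXCL12 (−1.69 ± 0.30, adjusted p = 0.0034), the last chosen after its value was seen. The 4 rises became 2 without either 0 h array.

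Among the 25 lists, ribosome biogenesis had the highest share of called members. Of 43 measured genes of nucleolar proteins and ribosomal RNA processing, 41 rose (95.3%, against 12% of all probe sets) and 0 fell. The median was 0.94 (1.0 in the unmarked pair and 0.92 in the pair marked Rep). Rrp1b, a nucleolar protein of ribosomal RNA processing, had 10.90 and 10.72 at 24 h, against 9.0 and 8.97 at 0 h (1.82 ± 0.11, adjusted p = 6.6e-05). Dkc1, the pseudouridine synthase dyskerin, had 11.51 and 11.45 at 24 h, against 9.88 and 9.76 at 0 h (1.66 ± 0.10, adjusted p = 6.6e-05). Nolc1, a chaperone of small nucleolar RNPs, had 11.72 and 11.61 at 24 h, against 10.31 and 10.33 at 0 h (1.35 ± 0.09, adjusted p = 9.1e-05). In each, the gap between the groups was many times the gap within a pair. Gnl3, the GTPase nucleostemin, rose by 1.25 (± 0.10), and the 2 members not called were Wdr12 (0.02) and Polr1a (−0.08), named after their values were seen. Cytosolic ribosomal proteins did not share this rise. Of 26 measured, 1 was higher (3.85%, against 12% of all probe sets) and 0 were lower. The median was −0.07 (−0.09 in both pairs). The 1 was Rpl12 (0.47 ± 0.09, adjusted p = 0.0046), while Rpl5, Rps6 and Rpl8 read −0.25 ± 0.09, −0.22 ± 0.08 and −0.17 ± 0.07 and were not called (adjusted p = 0.069, 0.076 and 0.11). With the replicate block Rpl5 was called lower (adjusted p = 0.043). Many ribosomal protein genes have near-identical pseudogenes, and probe sets may read several copies.

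The promoters of these genes were searched for the E-box CACGTG, the sequence that MYC and MAX bind, in RefSeq windows of GRCm38.p6 that run from 250 bases before to 50 bases after each gene's start. CACGTG reads the same on both strands. It was in 9 of the 38 ribosome biogenesis genes with a window (23.7%), against 8.09% of all genes with one. Over single windows the shares were 19.6% of 46 and 7.15% of 32851. A pair of these windows is shown, since both genes rose with the list, with the E-box in capitals. Nop2, an RNA methyltransferase of the large subunit, had 11.67 and 11.71 at 24 h, against 10.51 and 10.53 at 0 h (1.17 ± 0.10). Tsr1, an assembly factor of the small subunit, had 10.88 and 11.07 at 24 h, against 9.39 and 9.63 at 0 h (1.46 ± 0.15). The windows lie on the plus strand at chr6:125131633-125131932 and chr11:74897830-74898129. A match describes these letters and does not show binding, and the windows compared were not matched for base composition.
Nop2: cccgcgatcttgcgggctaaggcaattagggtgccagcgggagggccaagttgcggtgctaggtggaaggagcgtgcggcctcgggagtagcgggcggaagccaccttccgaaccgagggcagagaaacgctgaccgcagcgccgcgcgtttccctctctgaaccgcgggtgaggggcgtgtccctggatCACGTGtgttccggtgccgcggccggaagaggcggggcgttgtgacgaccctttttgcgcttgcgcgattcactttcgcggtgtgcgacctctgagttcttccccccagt
Tsr1: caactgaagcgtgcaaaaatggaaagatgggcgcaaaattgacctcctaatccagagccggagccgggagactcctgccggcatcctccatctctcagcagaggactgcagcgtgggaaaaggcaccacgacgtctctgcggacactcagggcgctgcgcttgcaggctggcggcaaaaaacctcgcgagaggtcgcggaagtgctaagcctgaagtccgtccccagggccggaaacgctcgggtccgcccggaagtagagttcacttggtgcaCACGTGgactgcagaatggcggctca

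Other arms of growth rose as well. Of 29 genes of nucleotide and one-carbon synthesis, 27 rose (93.1%, against 12% of all probe sets) and 0 fell. The median was 1.39 (1.54 and 1.34 in the pairs). Mthfd1, a trifunctional folate enzyme, had 11.71 and 11.65 at 24 h, against 9.45 and 9.46 at 0 h (2.22 ± 0.12, adjusted p = 5.5e-05). Shmt1, the cytosolic serine hydroxymethyltransferase, had 10.49 and 10.11 at 24 h, against 7.74 and 7.54 at 0 h (2.66 ± 0.14, adjusted p = 5.8e-05). Cad, the enzyme that starts pyrimidine synthesis, had 11.36 and 11.26 at 24 h, against 9.55 and 9.73 at 0 h (1.67 ± 0.10, adjusted p = 6.6e-05). All 3 were more than 2-fold higher within each pair of arrays. Nme1, a nucleoside diphosphate kinase, rose by 2.09 (± 0.13). The largest members were Tyms, thymidylate synthase (3.0 ± 0.34), and Rrm2, a subunit of ribonucleotide reductase (2.97 ± 0.44), both chosen after their values were seen. In both, the unmarked 24 h array (11.85 and 12.86) exceeded the one marked Rep (10.70 and 11.59) by more than 1.

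Of 28 tRNA synthetases and ATF4 targets, 13 rose (46.4%, against 12% of all probe sets) and 0 fell. The median was 0.78 (0.70 and 0.84 in the pairs). The count of rises was 7 without the unmarked 0 h array and 8 without any 1 of the other 3 arrays. Farsb had 11.31 and 11.22 at 24 h, against 10.28 and 10.25 at 0 h (1.0 ± 0.10, adjusted p = 0.00031), and Kars had 11.19 and 11.14, against 10.22 and 10.26 (0.92 ± 0.09, adjusted p = 0.00034). These enzymes charge tRNA with phenylalanine and lysine, and Vars and Rars, for valine and arginine, rose by 0.77 (± 0.09) and 0.88 (± 0.11). Atf4 itself read 0.11, and the stress targets Ddit3 and Trib3 read −0.46 and −0.61, none of them called and all chosen after their values were seen. Of 23 nutrient transporters, 8 rose (34.8%, against 12% of all probe sets) and 0 fell. The median was 0.57 (0.49 and 0.60 in the pairs). Slc19a1, the reduced folate carrier, had 11.60 and 11.59 at 24 h, against 10.15 and 10.14 at 0 h (1.45 ± 0.08, adjusted p = 6.6e-05). Slc29a1, a nucleoside transporter, had 11.78 and 11.31 at 24 h, against 10.18 and 9.99 at 0 h (1.46 ± 0.18), and Slc16a1, the lactate carrier MCT1, rose by 1.09 (± 0.14). Slc7a6, a carrier of cationic and neutral amino acids, rose by 0.64 (± 0.08).

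Of 18 glycolysis enzymes, 12 rose (66.7%) and 2 fell (11.1%), with a median of 0.73 (0.79 and 0.61 in the pairs). The share that fell was near the 11.8% of all probe sets, of which 12% rose. The 12 became 7 without the unmarked 24 h array. Tpi1, triosephosphate isomerase, had 12.93 and 12.32 at 24 h, against 10.66 and 10.45 at 0 h (2.07 ± 0.28, adjusted p = 0.0011). Pgk1, phosphoglycerate kinase, had 13.28 and 13.10 at 24 h, against 11.94 and 11.91 at 0 h (1.27 ± 0.10, adjusted p = 0.00015). Pgam1 and Pfkp, a mutase and the platelet-type phosphofructokinase, rose by 1.14 (± 0.15) and 1.18 (± 0.19). The falls were regulatory enzymes: Pdk1, which inhibits entry of pyruvate into mitochondria, read −0.62 ± 0.12 (adjusted p = 0.0057), and Pfkfb4 read −0.76 ± 0.24, close to the threshold and not called without any 1 of the 4 arrays (−0.85 to −0.67, adjusted p = 0.11 to 0.21). Of 36 oxidative phosphorylation subunits, 32 rose (88.9%, against 12% of all probe sets) and 0 fell. The median was 0.52 (0.55 and 0.52 in the pairs), a smaller shift in most of the chain. Atp5g1, a ring subunit of ATP synthase, had 13.35 and 13.29 at 24 h, against 12.08 and 12.20 at 0 h (1.18 ± 0.10, adjusted p = 0.00018). Ndufb6 of complex I and Cox5a of complex IV rose by 0.97 (± 0.10) and 0.86 (± 0.10).

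Of 28 chaperones, 23 rose (82.1%) and 1 fell (3.57%), against 12% and 11.8% of all probe sets. The median was 0.59 (0.64 and 0.58 in the pairs). The mitochondrial pair led. Hspd1, the chaperonin HSP60, had 12.82 and 12.65 at 24 h, against 11.01 and 10.90 at 0 h (1.78 ± 0.11, adjusted p = 6.6e-05), and Hspe1, its partner HSP10, had 13.12 and 13.07, against 12.03 and 11.89 (1.14 ± 0.10, adjusted p = 0.00018). Cct3, a subunit of the cytosolic chaperonin, rose by 1.01 (± 0.09). The 1 fall was Hspa1a, the heat-inducible HSP70, with 7.26 and 7.41 at 24 h, against 8.62 and 8.58 at 0 h (−1.26 ± 0.17, adjusted p = 0.00096).

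Genes of sterol metabolism moved in both directions. Of 29 genes of cholesterol and fatty acid synthesis, 20 rose (69%, against 12% of all probe sets) and 0 fell. The median was 0.56 (0.64 and 0.48 in the pairs), and 13 rose without the unmarked 0 h array. Idi1, isopentenyl diphosphate isomerase, had 11.27 and 11.27 at 24 h, against 9.75 and 9.77 at 0 h (1.51 ± 0.13, adjusted p = 0.00018). Hsd17b7 and Lss, later enzymes of the pathway, rose by 1.17 (± 0.11) and 1.29 (± 0.13), and Stard4, a sterol transfer protein, by 0.95 (± 0.09). The list of cholesterol efflux genes holds the exporters Abca1 and Abcg1, Mylip, which acts on uptake, and the regulators Nr1h3 and Srebf1. Of these 5, 3 fell (60%, against 11.8% of all probe sets) and 0 rose. The median was −1.38 (−1.29 and −1.47 in the pairs). Abca1 had 8.12 and 8.14 at 24 h, against 10.17 and 10.91 at 0 h (−2.41 ± 0.33, adjusted p = 0.0011). Mylip, the ligase that degrades the LDL receptor, had 10.33 and 10.75 at 24 h, against 12.01 and 12.28 at 0 h (−1.61 ± 0.17, adjusted p = 0.00036). Abcg1, another exporter, read −1.38 ± 0.33 (adjusted p = 0.015), a call lost without the unmarked 24 h array (−1.20, adjusted p = 0.10) or the 0 h array marked Rep (−1.11, adjusted p = 0.11). All 3 are known targets of the sterol sensor LXR, and Nr1h3 and Srebf1 read 0.05 and −0.24 and were not called, both named after their values were seen.

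Genes of the G1/S transition and of DNA replication had the highest median of the 25 lists. Of 53 measured, 47 rose (88.7%, against 12% of all probe sets) and 0 fell. The median was 1.66, which was 1.97 in the unmarked pair and 1.32 in the pair marked Rep. Mcm5, a subunit of the replicative helicase, had 12.85 and 12.66 at 24 h, against 10.88 and 10.96 at 0 h (1.84 ± 0.11, adjusted p = 6.6e-05). Mcm3, of the same ring, had 11.89 and 11.55 at 24 h, against 9.79 and 9.66 at 0 h (2.00 ± 0.13, adjusted p = 6.9e-05). Ccnd2, cyclin D2, which starts the passage through G1, had 13.75 and 13.91 at 24 h, against 12.33 and 12.44 at 0 h (1.45 ± 0.10, adjusted p = 8.1e-05). Ccnd2 was a shade lower on the unmarked 24 h array, whereas the helicase genes were higher on it. Ccne1 and Ccne2, the cyclins E that act at S phase entry, rose by 2.40 and 2.38, and E2f1 by 2.41, all chosen after their values were seen. The 6 members not called were Ccna2 (1.85), E2f2 (1.34), Cdt1 (0.40), Ccnd1 (0.12), Dbf4 (0.08) and Rpa1 (0.04), named after their values were seen.

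Promoters of this list were searched for TTCCCGC, the core bound by E2F factors, on both strands, where the other strand reads GCGGGAA. It was in 18 of the 41 genes with a window (43.9%), against 5.29% of all genes with one. Over single windows the shares were 38.5% of 52 and 4.60% of 32851. The windows compared were not matched for base composition, and a match does not show binding. The windows of Mcm3 and E2f3 are shown with the motif in capitals, both on the minus strand, at chr1:20820263-20820562 and chr13:29986014-29986313 of GRCm38.p6. E2f3, an E2F activator itself, had 10.57 and 9.98 at 24 h, against 7.89 and 7.68 at 0 h (2.49 ± 0.24).
Mcm3: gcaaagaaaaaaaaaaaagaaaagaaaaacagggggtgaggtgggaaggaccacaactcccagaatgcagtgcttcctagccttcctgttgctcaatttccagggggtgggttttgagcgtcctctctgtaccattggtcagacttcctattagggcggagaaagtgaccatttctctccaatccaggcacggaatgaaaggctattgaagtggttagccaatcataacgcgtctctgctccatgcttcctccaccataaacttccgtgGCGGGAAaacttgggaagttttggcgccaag
E2f3: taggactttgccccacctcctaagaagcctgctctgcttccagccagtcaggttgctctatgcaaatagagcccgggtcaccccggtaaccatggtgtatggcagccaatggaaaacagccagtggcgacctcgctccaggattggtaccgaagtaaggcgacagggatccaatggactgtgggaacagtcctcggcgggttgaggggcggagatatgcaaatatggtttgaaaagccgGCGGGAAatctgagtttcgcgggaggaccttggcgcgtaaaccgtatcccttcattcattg

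Mitosis genes differed most between the pairs. Of 39 measured, 14 were higher (35.9%, against 12% of all probe sets), 0 lower and 25 were not called although the median was 1.38. That median was 2.32 in the unmarked pair and 0.63 in the pair marked Rep. The mean level of the list on unmarked arrays was 8.99 at 0 h, 8.47 at 6 h and 11.21 at 24 h, and on arrays marked Rep 8.95, 8.43 and 9.51. The sets of arrays thus lay close together at 0 h and 6 h and apart at 24 h. Nuf2, a kinetochore protein, had 10.73 and 8.86 at 24 h, against 7.13 and 7.03 at 0 h (2.71 ± 0.58, adjusted p = 0.0089). Top2a, the topoisomerase of dividing cells, had 12.32 and 10.81 at 24 h, against 9.33 and 9.18 at 0 h (2.31 ± 0.51, adjusted p = 0.010). Smc2, a condensin subunit, had 11.08 and 10.29 at 24 h, against 9.38 and 9.53 at 0 h (1.23 ± 0.22, adjusted p = 0.0041), and Mad2l1, of the spindle checkpoint, had 12.47 and 11.51, against 10.61 and 10.65 (1.36 ± 0.29). In all 4 the 24 h array marked Rep lay between the 0 h arrays and the unmarked 24 h array. The count of 14 was 25 with the replicate block, 32 without the 24 h array marked Rep, 2 (with 1 lower) without the unmarked 24 h array, and 3 and 2 without the 0 h array that is unmarked or marked Rep. Nuf2 and Top2a lost their calls without the unmarked 24 h array (1.78 and 1.56, adjusted p = 0.051 and 0.070) or the 0 h array marked Rep (2.66 and 2.24, adjusted p = 0.055 and 0.063), and Mad2l1 without the unmarked 0 h array (1.33, adjusted p = 0.051).

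**Figure D4:**
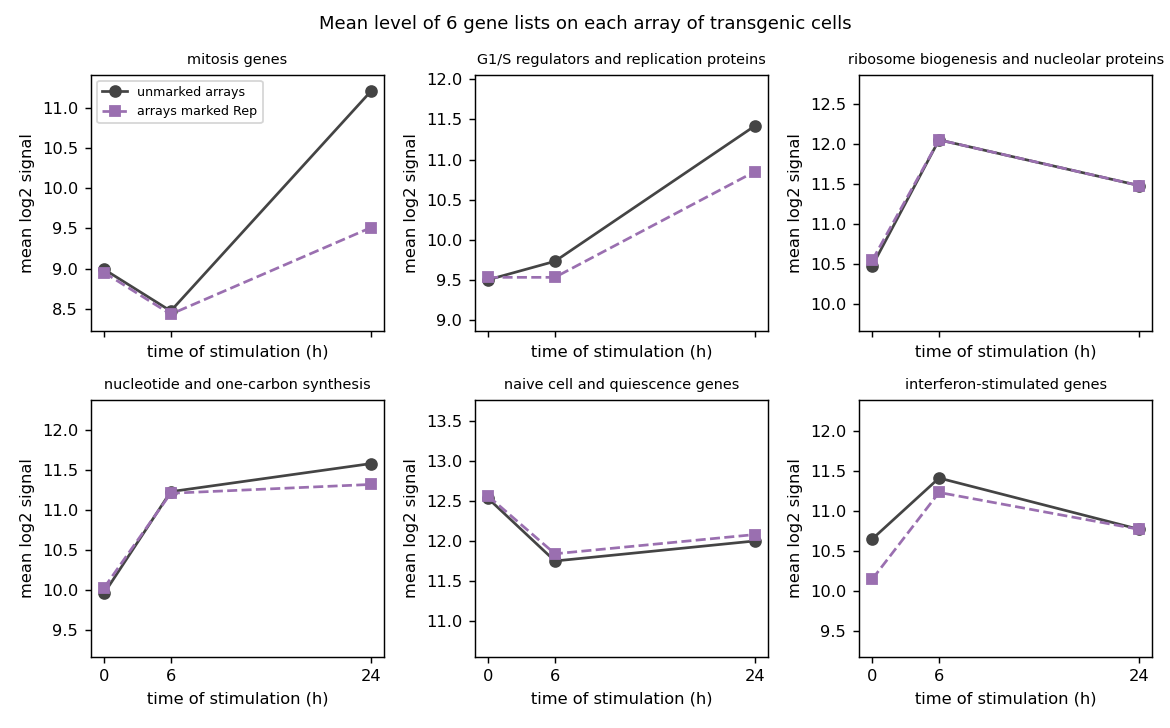
Mean log2 signal of 6 gene lists on each array of transgenic cells against the hours of stimulation, with circles for unmarked arrays and squares for arrays marked Rep, and the same span of log2 units on every vertical axis. The 2 sets of arrays part at 24 h in the mitosis genes (11.21 and 9.51) and in the G1/S genes (11.42 and 10.85), and coincide in the ribosome biogenesis genes (11.48 on both).

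The time courses of the lists differed in shape. Ribosome biogenesis genes averaged 10.48 and 10.55 at 0 h, 12.05 and 12.05 at 6 h, and 11.48 and 11.48 at 24 h, so that the 24 h level was below the 6 h level on both sets of arrays. G1/S genes averaged 9.50 and 9.53 at 0 h, 9.73 and 9.53 at 6 h, and 11.42 and 10.85 at 24 h. Quiescence genes averaged 12.53 and 12.56 at 0 h, 11.75 and 11.84 at 6 h, and 12 (unmarked) and 12.08 at 24 h. These averages are given as levels, without a test between 24 h and 6 h.

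Of 15 BCL2 family genes, 5 rose (33.3%) and 1 fell (6.67%), against 12% and 11.8% of all probe sets. The median was 0.03 (0.00 and 0.05 in the pairs), or −0.03 without the 24 h array marked Rep. Bcl2l1, the gene of the survival protein BCL-XL, had 10.13 and 10.45 at 24 h, against 9.11 and 8.84 at 0 h (1.32 ± 0.18, adjusted p = 0.001). Bak1, a pore-forming death protein, rose by 0.82 (± 0.11, adjusted p = 0.00098). Bid, a death protein cut by caspases, read 0.41 ± 0.10 (adjusted p = 0.014) and lost its call without the unmarked 0 h array (0.36, adjusted p = 0.086) or the 24 h array marked Rep (0.34, adjusted p = 0.084). Bmf, an initiator of death, read −0.98 ± 0.21 (adjusted p = 0.008) and lost its call without either unmarked array (−0.88 and −0.81, adjusted p = 0.063 and 0.065). The 5 rises became 2 without the unmarked 0 h array and 3 without any 1 of the others, and the 1 fall became 3 with the replicate block, 0 without either unmarked array and 2 without the 24 h array marked Rep.

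GIMAP GTPases, which support survival of resting lymphocytes, had 1 of 8 higher, 1 lower and a median of −0.24 (−0.22 and −0.28 in the pairs). Each count is 12.5% of the list, near the 12% and 11.8% of all probe sets. Gimap7 had 11.34 and 10.94 at 24 h, against 10.10 and 10.16 at 0 h (1.01 ± 0.12, adjusted p = 0.00052). Gimap3 read −0.32 ± 0.10 (adjusted p = 0.047) and was not called without any 1 of the 4 arrays (−0.36 to −0.28, adjusted p = 0.11 to 0.21). Gimap6 and Gimap1 read −0.33 ± 0.10 and −0.27 ± 0.09 (adjusted p = 0.051 and 0.052). The replicate block called 4 members lower, Gimap6 and Gimap1 among them (adjusted p = 0.013 and 0.045).

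Interferon-stimulated genes gave different answers on the 2 sets of arrays. Of 29 measured, 6 rose (20.7%) and 1 fell (3.45%), against 12% and 11.8% of all probe sets. The median was 0.39, which was 0.14 in the unmarked pair and 0.70 in the pair marked Rep. Their mean level was 10.77 and 10.77 at 24 h, against 10.65 and 10.15 at 0 h, so that the sets differed at 0 h. Zbp1, a sensor of Z-form nucleic acids, had 12.55 and 12.73 at 24 h, against 11.45 and 11.38 at 0 h (1.23 ± 0.16, adjusted p = 0.00096). Ifi27l2a had 12.33 and 12.51 at 24 h, against 11.55 and 11.10 at 0 h (1.10 ± 0.14, adjusted p = 0.00084). Samd9l, an antiviral factor, fell by 1.14 (± 0.24, adjusted p = 0.0085), a call lost without the unmarked 24 h array (−0.87, adjusted p = 0.072) or the 0 h array marked Rep (−1.12, adjusted p = 0.052). The 6 rises became 2 without either 0 h array or without the 24 h array marked Rep, and 12 without the 3 WT arrays marked Rep, which share the estimate of the spread.

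Of 28 PP2A subunits and regulators, 5 rose (17.9%) and 3 fell (10.7%), shares near the 12% and 11.8% of all probe sets. The median was 0.02 (−0.00 and −0.01 in the pairs), and −0.01 without any 1 of the 4 arrays. Lcmt1, which methylates the tail of the catalytic subunit, had 9.95 and 9.86 at 24 h, against 9.29 and 9.20 at 0 h (0.66 ± 0.09, adjusted p = 0.0012). Ptpa, an activator of the phosphatase, had 11.04 and 10.90 at 24 h, against 10.58 and 10.52 at 0 h (0.42 ± 0.10, adjusted p = 0.012). Ppp2r5c, a regulatory subunit of the B56 family, had 11.75 and 11.77 at 24 h, against 12.10 and 12.08 at 0 h (−0.33 ± 0.07, adjusted p = 0.0084), and its 3 other probe sets read −0.70, −0.88 and −0.86. Strn, the gene of the regulatory subunit striatin, read −0.44 ± 0.10 (adjusted p = 0.012). Cip2a, an inhibitor of PP2A chosen after its values were seen, had 9.89 and 8.16 at 24 h, against 7.34 and 7.14 at 0 h (1.78 ± 0.48, adjusted p = 0.026). It differed between the 24 h arrays as the mitosis genes did, and it kept its call only without the 24 h array marked Rep (0.92 to 2.65, adjusted p up to 0.13). Ppp2cb, which encodes the beta isoform of PP2Ac, read −0.13 ± 0.09 and was not called (adjusted p = 0.37). Ptpa and Strn lost their calls without the unmarked 24 h array (0.35 and −0.38, adjusted p = 0.092 and 0.089) or the 0 h array marked Rep (0.39 and −0.37, adjusted p = 0.076 and 0.093), and Ppp2r5c without the unmarked 24 h array (−0.32, adjusted p = 0.055) or the unmarked 0 h array (adjusted p = 0.050). The counts became 1 higher and 0 lower without the unmarked 24 h array, 3 and 1 without the unmarked 0 h array, and 1 and 1 without the 0 h array marked Rep.

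Nova1, a splicing regulator known from neurons, is read by 2 probe sets. Probe set 10400157 had 10.46 and 11.09 in transgenic cells at 24 h, against 11.71 and 11.56 at 0 h (−0.86 ± 0.24, adjusted p = 0.031), and 10400155 averaged 9.76 at 24 h, against 11.28 at 0 h (−1.52 ± 0.17, adjusted p = 0.00046). The first call was lost without either 0 h array or the unmarked 24 h array (−0.93 to −0.54, adjusted p = 0.093 to 0.22). In WT cells 10400157 averaged 5.93 at 24 h and 6.10 at 0 h, just above the lower quartile of the normalised arrays (5.81). Wdfy1, an endosomal adaptor, fell by 0.56 (± 0.09, adjusted p = 0.0027), and Nnt and Mid1 read 0.02 ± 0.07 and −0.08 ± 0.11 and were not called (adjusted p = 0.90 and 0.68).

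The last question was whether the 24 h response differed between transgenic and WT cells. In WT cells 3015 probe sets (12.9%) were higher at 24 h than at 0 h and 3230 (13.8%) were lower. Of the transgenic calls 86.8% were also WT calls in the same direction, which is 77.4% of the WT calls, and 2 probe sets were called in opposite directions. The test of the difference in response, in the same fit, called 0 of 23410 probe sets higher and 0 lower by limma. Both counts were 0 under each of the 18 alternatives run. An unadjusted p under 0.05 was found for 625 probe sets (2.67%). A calibrated test without any true difference would give a share of about 0.05, so these p-values may be too large. The 0 calls therefore do not show that the responses were equal. The median size of this difference was 0.10, and the median of 2 SE, a bound without adjustment for the number of tests, was 0.33. Differences well above that size were not called either, as Il17a shows.

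Values of single genes are therefore given without a call. Il17a had the largest moderated statistic in this test among genes read by their brightest probe set. Predicted or clone-named genes and segments of immunoglobulin and T cell receptor genes were left out of this ranking. Il17a read 1.14 ± 0.13 in transgenic cells and 0.05 ± 0.13 in WT cells, a difference in response of 1.08 ± 0.18 (adjusted p = 1). Il17f read 1.54 ± 0.22 in transgenic cells and 0.14 ± 0.22 in WT cells (1.40 ± 0.32, adjusted p = 1). Il23r read 0.90 ± 0.16 in transgenic cells and 0.20 ± 0.16 in WT cells (0.70 ± 0.23, adjusted p = 1). These 3 genes of the IL-17 and IL-23 axis were called in transgenic cells and not in WT cells, and the difference between the genotypes was not called. Idi1 read 1.51 ± 0.13 in transgenic cells and 2.26 ± 0.13 in WT cells, and Ccr4 read 2.55 ± 0.22 and 3.47 ± 0.22 (differences −0.75 ± 0.18 and −0.92 ± 0.31, adjusted p = 1 for both). Il1a read 3.39 ± 0.61 in transgenic cells and 1.78 ± 0.61 in WT cells (1.61 ± 0.86, adjusted p = 1). Slc4a1 read −2.93 ± 0.39 in transgenic cells and −1.29 ± 0.39 in WT cells. Its mean level at 24 h was 7.46 in both genotypes, against 10.39 in transgenic and 8.75 in WT cells at 0 h. The other measured erythroid markers, in transgenic and then WT cells, were Kel (−1.38 ± 0.20 and −0.05 ± 0.20), Alas2 (−1.22 ± 0.23 and −0.40 ± 0.23) and Klf1 (−0.21 ± 0.16 and −0.11 ± 0.16). None of these differences in response was called. The other 4 genes with the largest statistics in this ranking were Tas2r119 (0.55 ± 0.11), a taste receptor gene, Snord118 (−1.30 ± 0.27), a small nucleolar RNA, Sult1c2 (0.57 ± 0.12), a sulfotransferase, and D2hgdh (0.53 ± 0.12), a mitochondrial dehydrogenase, each with an adjusted p of 1. The transgenic means of Tas2r119 and Sult1c2 were 5.67 and 5.06 at 24 h, against 5.42 and 4.80 at 0 h, all under the lower quartile of the normalised arrays (5.81).

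By list, 27 of 29 interferon-stimulated genes had a difference in response above 0, against 12266 of 23410 probe sets. A value above 0 is a larger rise or a smaller fall in transgenic than in WT cells. The median difference in response was 0.44 for the list, against 0.01 for all probe sets. The list median was 0.22 without the transgenic 0 h array marked Rep and 0.36 without the 3 WT arrays marked Rep. Ribosome biogenesis genes had a difference in response below 0 in 40 of 43 members, with a median of −0.16. It was −0.07 when all WT arrays marked Rep were dropped and −0.01 when only that of 24 h was dropped. For mitosis genes the median was −0.27, and its sign turned with the array left out, to 0.67 without the transgenic 24 h array marked Rep and 0.44 without the unmarked WT 24 h array. No member of these 3 lists was called.

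**Figure D5:**
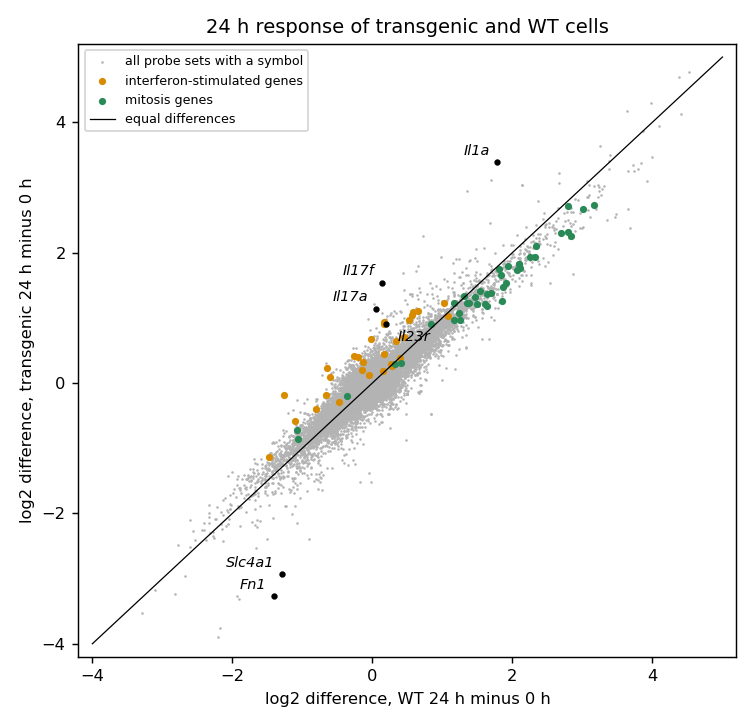
Log2 difference, 24 h minus 0 h, of each tested probe set in transgenic cells (vertical axis) against WT cells (horizontal axis), with interferon-stimulated genes in orange, mitosis genes in green, 6 named genes in black, and the line of equal differences. Most probe sets lie along the line (r = 0.934 across probe sets), most interferon-stimulated genes lie above it, and Slc4a1 and Fn1 lie below it.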

How the data were processed

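The authors deposited 1 table of log2 signals per probe set for the 12 arrays, and the sources used here do not give how they were summarised and normalised. Array medians ranged over more than 0.1, so the log2 values were quantile-normalised. Probe sets were named through the platform's annotation and the RefSeq table (1613 carry several symbols, 5443 none). One limma fit (limma 3.58.1, R 4.3.3) with 6 group means over 12 arrays gave each difference, with Benjamini-Hochberg adjustment over 23410 probe sets, and it was tested on simulated data. The number of arrays limits the precision.

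The members and gene lists were chosen with earlier results of these data known. Named genes were the 15 largest called differences in each direction without overlap, the up to 4 smallest p in every list, up to 2 called against the list's majority, fixed genes, and the 5 largest statistics of the response difference. A gene with several probe sets is represented by the brightest. Predicted or clone-named genes and segments of immunoglobulin and T cell receptor genes were left out of the largest differences and statistics. Deviations of same-marked arrays from their group means correlated in 15 of 15 pairs of groups (0.138 to 0.591), so the mark Rep was taken as pairing and fitted as a block among the alternatives. Summaries used Python 3.11.15 with pandas 2.3.3, and figures matplotlib 3.10.9.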

Additional observations from a re-analysis of the deposited data

How the results depend on the processing

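No called gene among the 157 named by the rules above changed sign under any alternative run. Genes chosen after their values were seen, and marker genes outside the 157, were not followed through every alternative. The median difference turned sign under at least 1 alternative for 3 of 25 lists, all near 0 (CDK inhibitors 0.02, BCL2 family −0.03, PP2A −0.02 to −0.01), and the median difference in response for 13 of 25. The counts for transgenic cells fell to 66 higher and 10 lower when a change of at least 2-fold was itself tested, and those for WT cells to 133 and 26. Leaving out 1 array gave 1675 to 2327 higher and 1402 to 2149 lower in transgenic cells, and 2138 to 2656 higher and 1941 to 2520 lower in WT cells. Leaving out the 3 WT arrays marked Rep, an alternative chosen after seeing the data, gave 1591 higher and 1279 lower in WT cells, and 2757 and 2770 in transgenic cells. With the mark Rep as a replicate block, 3248 were higher and 3364 lower in transgenic cells and 3442 and 3876 in WT cells. The block gave a call to 4 of 157 named genes (Foxp3, Rpl5, Gimap6 and Gimap1), to 5 of 65 marker genes (Foxp3, Siglech, Zbtb46, Cd8b1 with adjusted p = 0.0065, against 0.14 without it, and Klrb1c with 0.043, against 0.11) and to 54 of 682 list members, and took away 0 in each set. It gave Il21 an adjusted p of 0.028, against 0.067. The other alternatives (values as deposited, median centring, filters on probe sets, moderation, compared groups only) left these counts within 1.5 times. Of 2195 values of named genes under the alternatives, 1977 kept their side of the threshold, 202 lost the call and 14 gained it. At 2 arrays a group, small differences were limited by the spread between arrays.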
